A study of Mus musculus with 21 samples.

Results

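LB31 is a cell line grown from a pre-B acute lymphoblastic leukaemia of a mouse, and it was compared with B-lineage cells of the bone marrow that carry the same engineered gene loss. The comparison took 3 arrays of LB31 carrying an empty pMY retroviral vector (LB31 pMY) and 3 arrays of marrow cells from Blnk knockout mice (Blnk KO BM), 6 of the 21 arrays of the series, and the members were chosen by the array titles alone. LB31 was established from a Blnk KO mouse, so both groups are labelled as lacking Blnk, and the line was grown in RPMI1640 with fetal bovine serum and 5 ng/ml interleukin 7. The marrow cells were separated by cell sorter as positive for B220, a surface form of CD45 used as a marker of the B lineage, and were not cultured per the labels. The series calls the marrow cells non-neoplastic. The other arrays held marrow of wild-type mice, of mice with a transgene for LAP, the form of C/EBPβ that activates transcription (LAP tg), and of mice with both changes (LAP tg/BLNK KO), and LB31 carrying Blnk cDNA or a loss-of-function mutant named YF. The labels do not say how old the mice were, of which strain, or whether replicates were separate mice or cultures, so the p-values cover the spread among these arrays, part or all of which may be technical. LB31 is 1 line, kept in culture and transduced. Its differences from marrow by leukaemia, by culture with interleukin 7, by vector, by clonal origin and by cell stage cannot be told apart. The same holds for any difference by sex or by a LAP transgene.

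BLNK is the adaptor that links the pre-B cell receptor, through the kinase SYK, to phospholipase C and to the signals that stop pre-B cells dividing and let them rearrange a light chain gene. Mice without BLNK hold many of their B-lineage cells at the pre-B stage and are known to develop pre-B leukaemia. Interleukin 7 drives the growth of pro-B and pre-B cells through JAK1, JAK3 and STAT5, and MYC-family transcription factors raise the genes of ribosome production, metabolism and division in dividing cells.

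Each array gives a fluorescence signal for every probe set, and 14655 genes entered the test, each through 1 probe set. Levels are normalized log2 signals, given array by array in the order of the replicate numbers, and changes are log2 differences, LB31 pMY minus Blnk KO BM, with their SE. Levels of different genes are not compared, because probe sets differ in brightness. A gene was called at a limma adjusted p under 0.05. A gene whose group mean lay at or under 4.06 is said to be under the filter level there. That level is the signal of an array's dimmer probe sets. Genes described as measured in both groups had both group means above it, and detection calls were not used. The median deposited signal of an array was 17 ± 2.23 (SD, n = 3) in LB31 pMY and 28.8 ± 1.78 in Blnk KO BM, so each call was also tested on the values as deposited and on arrays centred on their medians. A call is described as held where it was made in the same direction under all 3 scalings. The median change of all genes was 0.07 after quantile normalization, -0.42 as deposited and 0.23 after centring, so changes near these sizes have a direction that depends on the scaling. Replicate arrays correlated with r between 0.963 and 0.967 in LB31 pMY and between 0.975 and 0.979 in Blnk KO BM, and arrays of different groups between 0.868 and 0.884. The ratio of the 3′ to the 5′ Gapdh control probe sets, a measure of RNA integrity, was 0.717 ± 0.0132 in LB31 pMY and 0.836 ± 0.0142 in Blnk KO BM (SD, n = 3), and its part in the results was not tested.

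The Blnk probe set did not follow the knockout label. Blnk read 9.62, 9.63 and 9.65 in LB31 pMY and 12.60, 12.40 and 12.12 in Blnk KO BM, with no overlap, while wild-type marrow had a mean of 12.44 ± 0.09 (SD, n = 3). The change was -2.74 ± 0.10, with an adjusted p of 1.52e-15. LB31 given Blnk cDNA had a mean of 8.56 at the same probe set. No source used here says whether this probe set reads the stretch of Blnk that was deleted, so it checks neither label, and the marrow group is called the knockout-labelled marrow below.

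Marker genes listed for other cell types were mostly lower in LB31 pMY than in the sorted marrow. The difference was large for the neutrophil sum and smaller for the erythroid sum. Of the 17 measured neutrophil markers, 16 were called lower in LB31 pMY and 0 higher, against 29.9% of all genes called lower and 29.4% called higher. S100a8, a neutrophil granule gene, read 12.67, 13.52 and 13.58 in the knockout-labelled marrow and 3.32, 2.29 and 4.24 in LB31 pMY. Lower calls also went to 16 of 18 monocyte and macrophage markers, 9 of 11 erythroid, 10 of 11 megakaryocyte, 11 of 17 T and NK cell, 12 of 14 plasmacytoid dendritic cell, 4 of 7 basophil and mast cell and 13 of 15 stromal and endothelial markers. The exceptions called higher were Vcan, Tfrc (the transferrin receptor, also used by dividing cells), Cd28 and Klk1, of which Cd28 and Klk1 did not hold and Klk1 had its 3 other probe sets called lower. Irf8 and Tcf4 of the plasmacytoid list and Cdh5 of the stromal list each had 1 other probe set called opposite to the one used. In the plasmacytoid list the other probe sets of Cox6a2, Pacsin1 and Tlr7 were not called. Summed neutrophil marker signal ran from 17640 to 40380 in the knockout-labelled marrow and from 167.4 to 185.5 in LB31 pMY, and the monocyte and macrophage sum from 7366 to 14420 and from 550.2 to 653.5. The megakaryocyte sum fell between 3432 and 7289 against 162.4 to 227.0, the erythroid sum between 5272 and 11930 against 4292 to 4465, the T and NK cell sum between 1496 and 1830 against 288.0 to 328.2, and the stromal and endothelial sum between 2867 and 7016 against 335.0 to 385.4. The plasmacytoid dendritic cell sum was 9632 to 13320 against 4009 to 4066, and the basophil and mast cell sum 171.5 to 318.3 against 58.04 to 114.3. In bulk RNA, fewer cells of a type and less RNA per cell cannot be told apart, and the part these cells have in the lower calls below was not tested. The first knockout-labelled array had the least S100a8, and without it 4059 genes were called higher and 4210 lower. Of 10 plasma cell markers 3 were called in each direction, with Xbp1 and Fkbp11 held higher and Jchain, Irf4 and Prdm1 held lower.

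**Figure D1:**
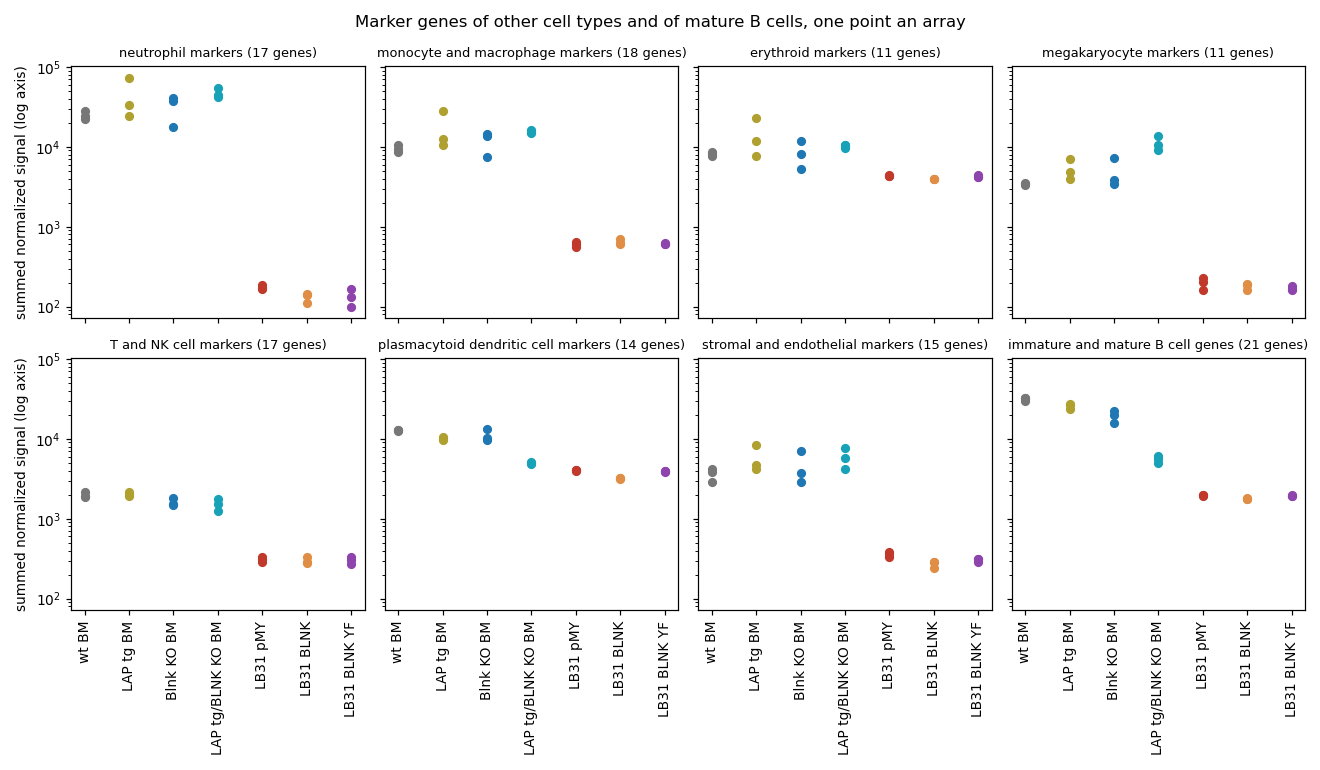
Summed normalized signal of 7 marker lists of other cell types and of 21 immature and mature B cell genes on each of the 21 arrays, on a log axis, with 1 point an array. The 9 LB31 arrays lie below the 12 marrow arrays for every list shown, with neutrophil sums of 167.4 to 185.5 in LB31 pMY and 17640 to 40380 in Blnk KO BM.

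Most of the measured genes differed between the line and the knockout-labelled marrow. Of 14655 genes, 8695 (59.3%) were called, 4309 (29.4%) higher and 4386 (29.9%) lower in LB31 pMY. As deposited, 1879 were higher and 6329 lower, and after centring 4968 were higher and 3576 lower. Calls held for 5390 genes (36.8%), 1875 (12.8%) higher and 3515 (24%) lower, and 4403 (30%) were called with a change of at least 2-fold. Lower calls thus held more often than higher calls over all genes, 3515 of 4386 against 1875 of 4309. The 3 LB31 pMY arrays lay above the 3 knockout-labelled arrays in 32.4% of genes and below them in 31.2%. In 3405 genes (23.2%) the 3 LB31 pMY arrays lay above all 12 marrow arrays, and in 3312 (22.6%) below them. The lists of growth, sterol and amino acid genes were on the higher side and those of B cell identity, signalling and class II antigen presentation on the lower side.

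**Figure D2:**
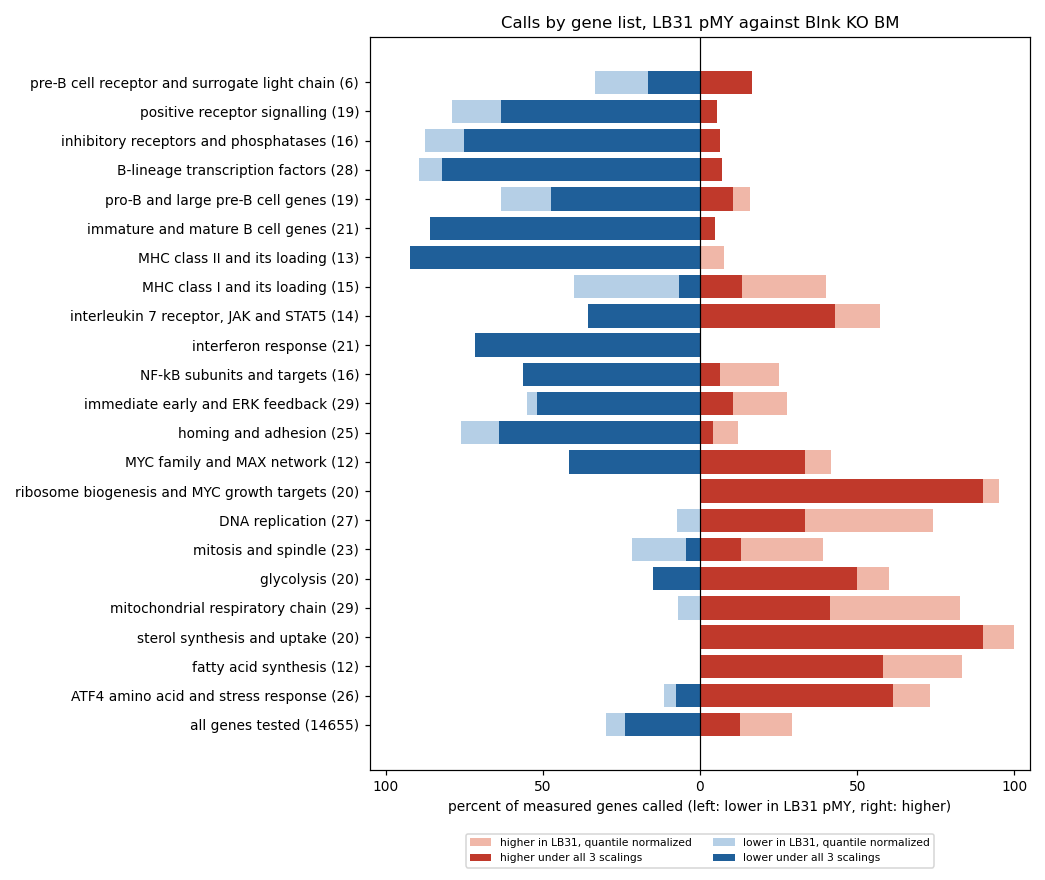
Percent of the measured genes of each list called lower (left) and higher (right) in LB31 pMY than in Blnk KO BM, with the list's number of measured genes in brackets and all 14655 genes at the bottom. Dark bars are calls held under all 3 scalings, and pale bars are calls after quantile normalization that did not hold under all 3. Held higher calls were made for 18 of the 20 sterol genes and held lower calls for 12 of the 13 class II genes.

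Mycn, by its brightest probe set, had the largest rise among genes measured in both groups. Mycn, a MYC-family transcription factor of early progenitors and nerve cells, read 13.01, 13.02 and 13.01 in LB31 pMY and 4.84, 4.80 and 5.09 in the knockout-labelled marrow. The groups were far apart, and no marrow array of any genotype exceeded 5.61. The change was 8.11 ± 0.30 (adjusted p 3.63e-15), a 276-fold difference on this scale. Its other 2 probe sets rose by less, 4.63 and 4.03, and the mean of the Mycn probe sets rose by 5.59, below Aldh1a7 (7.75) and Myl10 (5.84) by the same measure. At the brightest Mycn probe set LB31 with Blnk cDNA had a mean of 10.92 and LB31 with the YF mutant 11.45, while the other 2 read 9.55, 9.35 and 9.53 and 7.30, 7.18 and 7.34 in LB31 with the empty vector, Blnk cDNA and YF. Aldh1a7, an aldehyde dehydrogenase, followed with 12.13, 12.19 and 12.16 against 3.98, 4.16 and 5.10, a change of 7.75 ± 0.28. Myl10, a myosin light chain known from precursor lymphocytes, rose by 5.84 ± 0.36. The transcription factor gene Foxc1 rose by 5.37 ± 0.29, and Efhd1, a calcium-binding protein, by 5.21 ± 0.29.

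The other large rises in genes measured in both groups were of varied kinds. Nrxn2, a synaptic adhesion molecule, rose by 5.18 ± 0.26, Nefh, a neurofilament subunit, by 4.57 ± 0.24, and Stag3, a cohesin subunit of meiosis, by 4.19 ± 0.33. Cst7, a protease inhibitor of immune cells, rose by 4.97 ± 0.23 and Cenpv, a centromere protein, by 4.51 ± 0.15. Against wild-type marrow the rise was smaller for Cenpv, at 2.87, and larger for Efhd1, at 7.37. The largest rises in genes under the filter level in the knockout-labelled marrow were 2 variable segments of the T cell receptor gamma locus. Trgv1 read 10.63, 10.83 and 10.73 in LB31 pMY and values between 2.93 and 4.08 in the knockout-labelled marrow, and Trgv4 read 10.62, 10.38 and 10.41 against 3.02, 3.68 and 3.92. All marrow arrays stayed at or below 4.08 for Trgv1, while the T cell genes Cd3e, Cd8a and Bcl11b had no call and Cd3d and Cd3g were lower in LB31 pMY. Of the other 3 probe sets of Cd8a, 2 were called. Htra3, a secreted protease, rose by 6.51 ± 0.28, Tgfb3, a TGF-β ligand, by 6.28 ± 0.44 and Tnfsf11, the osteoclast ligand RANKL, by 5.52 ± 0.32. Slco1a5, Tmem119, Clgn, Atp2b2 and Mc1r completed the 10, with rises down to 5.36. Of the 25 genes named as the largest rises, 24 lay above all 12 marrow arrays, the exception being Cebpb.

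The largest falls joined Xist and B-lineage genes with genes of myeloid and stromal cells. Xist, the RNA of the inactive X chromosome, read 4.53, 4.60 and 4.74 in LB31 pMY and 12.83, 12.77 and 12.76 in the knockout-labelled marrow, a change of -8.16 ± 0.24 (adjusted p 7.02e-17), and all 3 of its probe sets were lower. At this Xist probe set no marrow array read below 12.61 and no LB31 array above 5.12. The part of sex in this was not tested. The neutrophil granule genes Ngp and Camp fell by 7.19 and 7.15. Pafah1b3, a subunit of the enzyme that degrades platelet-activating factor, read 4.09, 4.46 and 4.65 in LB31 pMY and 11.28, 11.13 and 10.87 in the knockout-labelled marrow, a fall of 6.70 ± 0.28. The iron exporter Slc40a1, the lymphocyte GTPase Gimap4 and the inflammasome adaptor Pycard fell by 6.20, 6.11 and 5.54. Fam117a, Casd1, Ifi30, Abca1, Fcer1g and Bfsp2 were the others with both means above the filter level, with falls of 5.15 to 5.94. Some LB31 pMY means were close to that level, with single arrays under it, so the sizes of these falls are uncertain. Among them were Gimap4 at 4.10, Camp at 4.11, Fcer1g at 4.24, Casd1 at 4.26 and Pycard at 4.28. Against wild-type marrow the fall was smaller for Bfsp2, at 2.44, and larger for Abca1, at 6.43. Among genes under the filter level in LB31 pMY, the largest falls included Rag1, Ms4a1 and Ltb, described below, and S100a8, S100a9, Vcam1, Ppbp, Chil3, Mpeg1 and Slc4a1, which belong to the marker lists of other cells. All 25 of the named falls lay below all 12 marrow arrays.

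**Figure D3:**
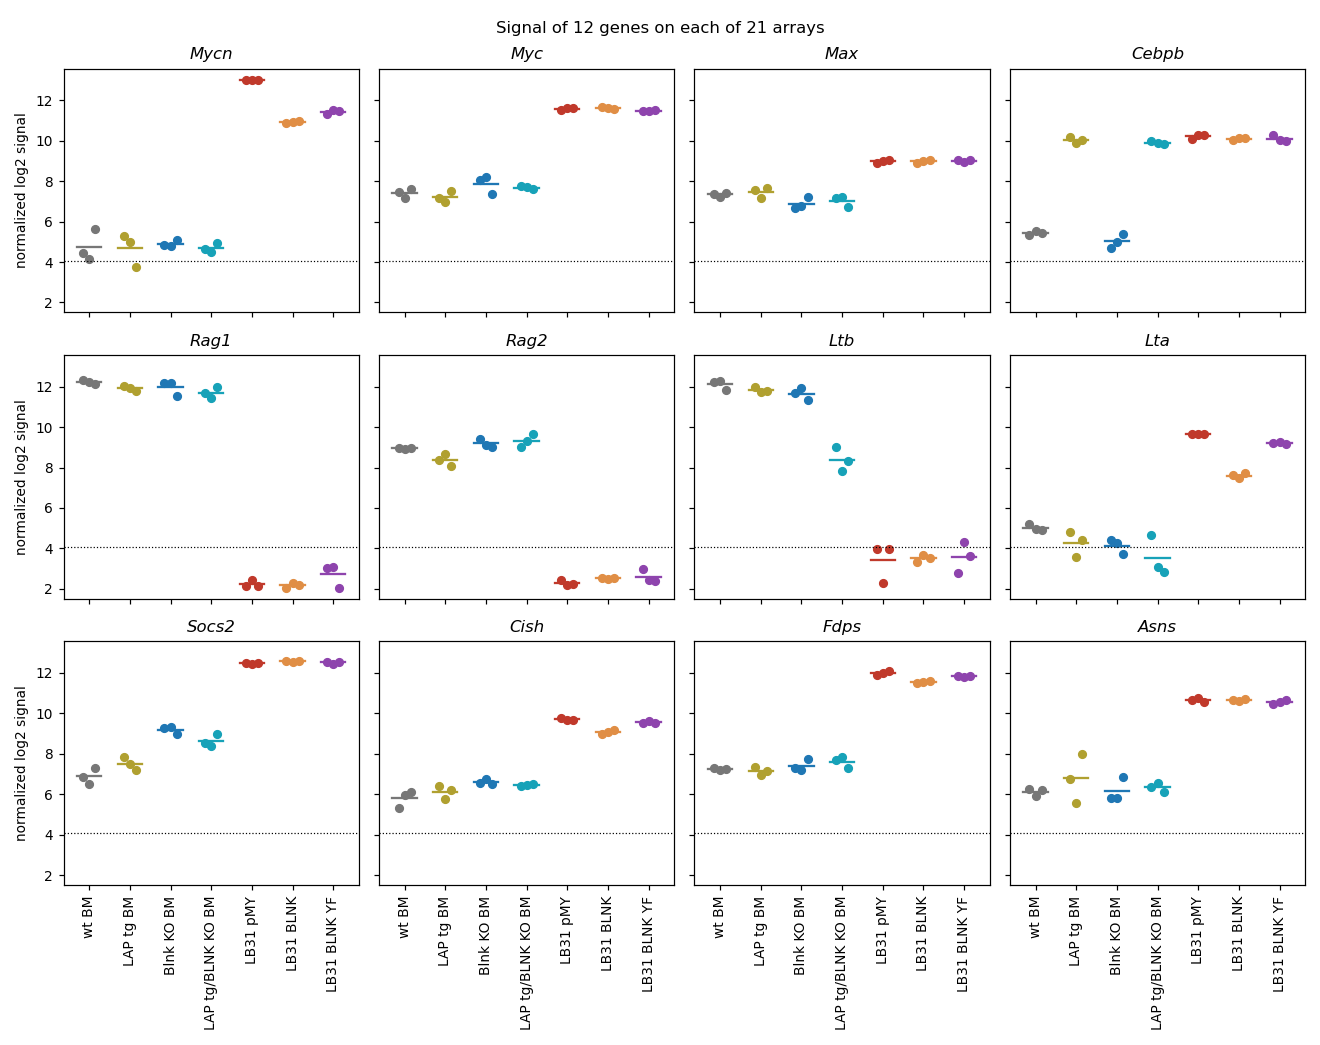
Normalized log2 signal of 12 genes on each of the 21 arrays, with a point for each array, a line at the mean of each group of 3 and a dotted line at the filter level of 4.06. Mycn, Myc, Max, Lta, Socs2, Cish, Fdps and Asns are above the marrow in all 9 LB31 arrays, Rag1, Rag2 and Ltb are below it, and Cebpb is also high in LAP transgenic marrow, with means of 10.05 and 9.90.

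Mycn, Myc and their partner gene Max rose, and Mxd1 and Mxd4, whose products also pair with MAX, fell. MYC proteins bind DNA at E-boxes as dimers with MAX, while MXD proteins pair with MAX and repress. Myc read 11.52, 11.64 and 11.62 in LB31 pMY and 8.04, 8.21 and 7.38 in the knockout-labelled marrow, a change of 3.72 ± 0.16 (adjusted p 2e-14). The groups did not overlap, and no marrow array exceeded 8.21. Max read 8.88, 9.02 and 9.07 against 6.70, 6.76 and 7.22, a rise of 2.10 ± 0.14. Mxd1 fell by 2.72 ± 0.37, Mxd4 by 2.33 ± 0.11 and Mlxip, a glucose-sensing relative, by 3.15 ± 0.12. Of the 12 measured genes of the network, 5 were called higher and 5 lower, and 4 and 5 of these calls held. Of all genes 29.4% were called higher and 29.9% lower.

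Genes of ribosome production were called higher almost throughout. Of 20 measured ribosome biogenesis and MYC growth genes, 19 rose and 0 fell, 18 of the calls held, and the median change was 1.74 against 0.07 for all genes. Srm, which makes the polyamine spermidine, read 11.22, 11.32 and 11.35 in LB31 pMY and 8.28, 8.35 and 8.30 in the knockout-labelled marrow, a rise of 2.99 ± 0.08. The nucleolar genes Nolc1, Nop58 and Nop2 rose by 2.40 ± 0.08, 2.35 ± 0.13 and 2.09 ± 0.13, and Pes1, of the large-subunit processing complex, by 1.42 ± 0.08. All of these LB31 arrays lay above every marrow array. Odc1, the first enzyme of polyamine synthesis, was not called, at 0.38 on the log2 scale, though its other 2 probe sets were called higher. Without any 1 of the 6 arrays, 19 or 20 of the genes were called higher.

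RefSeq promoters of GRCm38.p6, from 250 bases before to 50 after the start, were searched on both strands for 6 motifs. Of the tested genes 11779 had a promoter there. Only the first listed start of each gene was searched, although 2324 genes had several. The E-box CACGTG was in 9.44% of all promoters, in 12.9% of those of genes held higher and in 9.3% of those held lower. Of 15 ribosome biogenesis promoters, 2 held it, those of Nop2 and Pes1. The Nop2 promoter is shown because it carries the E-box (capitals), at position -60 from the start, in a gene that rose, as did Mycn and Myc. It lies at chr6:125131633-125131932 on the plus strand.
Nop2: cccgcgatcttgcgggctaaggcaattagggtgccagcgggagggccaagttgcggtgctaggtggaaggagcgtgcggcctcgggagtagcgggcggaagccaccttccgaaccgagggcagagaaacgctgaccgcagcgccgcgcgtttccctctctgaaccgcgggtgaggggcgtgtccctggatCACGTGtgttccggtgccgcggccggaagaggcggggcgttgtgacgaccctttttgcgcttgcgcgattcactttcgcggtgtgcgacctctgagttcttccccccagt
A match of letters is a description and shows no binding. The C/EBP palindrome TTGCGCAA was in 0.238% of all promoters, 0.195% of those held higher and 0.212% of those held lower, and the cyclic AMP element TGACGTCA in 2.92%, 2.99% and 2.3%.

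Feedback inhibitors of interleukin 7 signalling rose while the receptor chain fell. Socs2, a STAT5-induced inhibitor of cytokine receptors, read 12.50, 12.44 and 12.47 in LB31 pMY and 9.26, 9.34 and 8.98 in the knockout-labelled marrow, a change of 3.28 ± 0.17 (adjusted p 3.12e-13). Cish, of the same family, read 9.76, 9.67 and 9.69 against 6.57, 6.76 and 6.51, a change of 3.09 ± 0.16. Neither gene overlapped between the groups, and in both every LB31 array of the series lay above every marrow array. Socs1 rose by 2.45 ± 0.26, Socs3 by 2.09 ± 0.30, the kinase gene Jak3 by 1.58 ± 0.20 and Pim1, a survival kinase, by 0.88 ± 0.17. Il7r, the interleukin 7 receptor alpha chain, read 9.55, 9.82 and 9.64 against 11.58, 11.70 and 11.36, a fall of 1.88 ± 0.09, and the groups did not overlap. Jak1 fell by 1.13 ± 0.09, with 1 of its other 2 probe sets called higher, and Bcl6, which STAT5 is known to repress, by 4.12 ± 0.38, to a mean near the filter level. Of 14 measured genes, 8 were called higher and 5 lower, and 6 and 5 held. Only LB31 was kept in interleukin 7 per the labels, and the part of the cytokine in these values cannot be told apart from the rest.

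Every measured gene of sterol synthesis was called higher. Its enzymes turn acetyl-CoA into isoprenoids and cholesterol, and the factor SREBP2, encoded by Srebf2, is known to raise them when sterols are low. All 20 measured genes rose, 18 calls held, and the median change was 1.81. Fdps, which makes farnesyl diphosphate, read 11.91, 12.02 and 12.10 in LB31 pMY and 7.32, 7.22 and 7.72 in the knockout-labelled marrow, a rise of 4.59 ± 0.12 (adjusted p 1.81e-17). Sqle, the squalene epoxidase, read 10.21, 10.31 and 10.23 against 6.53, 6.35 and 6.54, a rise of 3.77 ± 0.22. The groups were far apart for both genes, and 19 of the 20 genes lay above all marrow arrays. Idi1, Cyp51 and Lss rose by 3.46 ± 0.16, 3.25 ± 0.14 and 3.14 ± 0.17. The regulators Insig1 and Srebf2 rose by 2.16 ± 0.10 and 1.82 ± 0.10. Leaving out any 1 of the 6 arrays left all 20 called.

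Fatty acid synthesis genes were also mostly higher. Of 12 measured, 10 were called higher and 0 lower, 7 calls held, and the median was 1.20. Fasn, the fatty acid synthase, read 10.28, 10.32 and 10.26 in LB31 pMY and 7.23, 7.50 and 7.44 in the knockout-labelled marrow, a rise of 2.90 ± 0.13. The desaturase gene Fads2 rose by 3.27 ± 0.13 and the elongase gene Elovl6 by 1.88. Srebf1, the factor that drives this list, was not called, at -0.13. Without 1 of the arrays, 8 or 9 were called higher.

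Genes of the ATF4 response, which serves amino acid supply under stress, were mostly higher. ATF4 is a transcription factor made when amino acids are short or proteins misfold. Of 26 measured genes, 19 were called higher and 3 lower, 16 and 2 held, and the median was 1.18. Asns, the asparagine synthetase, read 10.69, 10.78 and 10.55 in LB31 pMY and 5.80, 5.81 and 6.85 in the knockout-labelled marrow, a rise of 4.52 ± 0.36 (adjusted p 4.53e-10). Shmt2, a mitochondrial enzyme of serine use, read 11.68, 11.84 and 11.68 against 7.67, 7.70 and 7.87, a rise of 3.99 ± 0.17. Both genes were above all marrow arrays, although the third knockout-labelled array was higher for Asns than the other two. The stress gene Nupr1 rose by 3.65 ± 0.33, the transporter gene Slc7a5 by 2.26, and Atf4 itself by 0.68 ± 0.06. Ddit4, an inhibitor of mTORC1 signalling, fell by 1.19 ± 0.26 and Cebpg by 0.71 ± 0.08, and Ddit3 was called lower without holding; both Cebpg and Ddit3 had another probe set called higher. The transporter gene Slc7a11 and Atf3 were not called.

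The C/EBP-ATF composite motif TGATGCAA, at which ATF4 is known to bind with C/EBP partners, was in 0.637% of all promoters, 0.715% of those held higher and 0.707% of those held lower. Among 23 ATF4-list promoters 4 held it (17.4%), those of Chac1, Nupr1, Slc7a11 and Atf3. The Chac1 promoter at chr2:119350992-119351291 on the plus strand and the Nupr1 promoter at chr7:126625421-126625720 on the minus strand are shown because both genes rose and both carry the motif, in capitals, as its reverse complement. The match lies at position -193 from the start in Chac1 and -110 in Nupr1.
Chac1: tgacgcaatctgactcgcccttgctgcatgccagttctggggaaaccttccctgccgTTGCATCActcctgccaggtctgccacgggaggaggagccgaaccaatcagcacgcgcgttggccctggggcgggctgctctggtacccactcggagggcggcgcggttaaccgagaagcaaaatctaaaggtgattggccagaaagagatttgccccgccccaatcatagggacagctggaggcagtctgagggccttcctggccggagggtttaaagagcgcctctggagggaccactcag
Nupr1: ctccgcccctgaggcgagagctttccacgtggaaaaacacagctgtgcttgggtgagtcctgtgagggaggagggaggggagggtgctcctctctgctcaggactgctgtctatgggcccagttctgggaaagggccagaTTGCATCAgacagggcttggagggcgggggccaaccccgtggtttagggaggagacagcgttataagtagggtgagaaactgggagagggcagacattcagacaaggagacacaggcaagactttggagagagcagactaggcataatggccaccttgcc
Chac1, which degrades glutathione, read 6.53, 6.86 and 6.87 in LB31 pMY and 4.90, 4.68 and 5.10 in the knockout-labelled marrow, a rise of 1.86 ± 0.22, with no overlap. Nupr1 read 7.90, 7.66 and 7.92 against 4.25, 3.64 and 4.63.

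**Figure D4:**
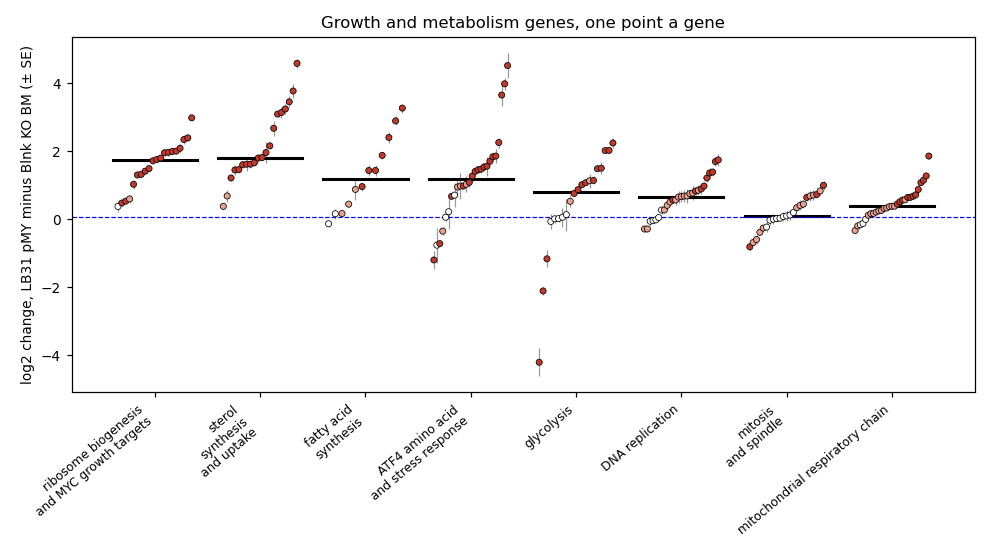
Log2 change between LB31 pMY and Blnk KO BM (± SE, n = 3 arrays a group) of every measured gene in 8 lists, with a black bar at the median of each list and a dashed line at the median of all genes, 0.07. Dark points are calls held under all 3 scalings, pale points other calls and open points genes not called, and the medians run from 0.10 for mitosis and spindle to 1.81 for sterol synthesis.

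Glycolysis genes were higher in part, and phosphofructokinase isoenzymes moved apart by their brightest probe sets. Of 20 measured genes, 12 were called higher and 3 lower, 10 and 3 held, and the median was 0.82. Pkm, the pyruvate kinase, read 10.44, 10.51 and 10.44 in LB31 pMY and 8.30, 8.37 and 8.66 in the knockout-labelled marrow, a rise of 2.02 ± 0.08, with no overlap. Pfkl, the liver-type phosphofructokinase, rose by 2.25 ± 0.15, while the platelet-type Pfkp fell by 2.10 ± 0.11. The other 2 probe sets of Pfkl were called higher, and the other 2 of Pfkp were not called. Pgam1 and Ldha rose by 2.03 ± 0.08 and 1.49 ± 0.07. Hk3, a hexokinase of myeloid cells, read 3.41, 2.94 and 3.19 in LB31 pMY against 6.92, 7.61 and 7.62 and was called lower, beside the lower neutrophil and monocyte markers. Slc2a1, the main glucose transporter, was not called, at 0.02, though its other 2 probe sets were called higher. Of 29 respiratory chain genes, 24 were called higher and 2 lower, but only 12 of the calls held, and the median was 0.39. The largest rises of that list were in Sdhc, a succinate dehydrogenase subunit, at 1.86 ± 0.10, and Ndufb5 of complex I at 1.28 ± 0.07.

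Cdk4 and 2 of the D cyclins rose, and the cycle inhibitors moved both ways. D cyclins with CDK4 or CDK6 inactivate RB and open the cycle, and p27, encoded by Cdkn1b, and p21, encoded by Cdkn1a, restrain them. Cdk4 read 11.38, 11.55 and 11.52 in LB31 pMY and 9.13, 8.82 and 9.58 in the knockout-labelled marrow, a rise of 2.30 ± 0.13. Ccnd2 rose by 2.24 ± 0.11 and Ccnd3, the D cyclin that pre-B cells need, by 1.98 ± 0.18, though 1 other probe set of Ccnd3 was called lower. Ccnd1 fell by 2.55 ± 0.21. Cdkn1a read 9.68, 9.77 and 9.76 against 6.40, 5.95 and 6.27, a rise of 3.53 ± 0.17 (adjusted p 1.84e-13), and the groups did not overlap. Cdkn1b fell by 1.92 ± 0.11 with its only other probe set called higher, Cdkn2d by 2.11 ± 0.07 and Rb1 by 1.45 ± 0.09. Of the 14 genes of the list, 5 were called higher and 6 lower, against 29.4% and 29.9% of all genes.

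DNA replication genes were mostly higher after quantile normalization, and fewer calls held. Of 27 measured, 20 were called higher and 2 lower, with a median of 0.67, but as deposited 9 were higher and 2 lower, and 9 higher calls held. E2f1, a transcription factor of S-phase entry, rose by 1.75 ± 0.18, and the helicase subunit genes Mcm2 and Mcm3 by 1.70 ± 0.13 and 1.22 ± 0.12. Mcm3 read 11.22, 11.16 and 11.15 in LB31 pMY and 9.95, 9.62 and 10.30 in the knockout-labelled marrow. Pcna and Mcm7 were not called, at 0.05 and -0.01, though 2 of the other 3 probe sets of Mcm7 were called higher. The direction of the mitosis list depended on the scaling: of 23 genes, 9 were called higher and 5 lower with a median of 0.10, as deposited 3 were higher and 7 lower, and after centring 13 were higher and 1 lower. Plk1, a mitotic kinase, rose by 1.00 ± 0.13 and Cenpf, a kinetochore protein, fell by 0.81 ± 0.12 with 1 other probe set called higher, while Mki67, the proliferation antigen, was lower by quantile normalization, at -0.68 ± 0.09, with a call that did not hold.

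The E2F-type motif TTTGGCGC was in 0.976% of all promoters, 1.56% of those held higher, 0.424% of those held lower and 5 of 22 replication promoters (22.7%). The related TTTCGCGC, which differs from it at 1 position, was in 0.577%, 1.3% and 0.389%, and in 3 of the 22. The Mcm3 promoter at chr1:20820263-20820562 on the minus strand is shown because Mcm3 rose and carries the first motif (capitals) 39 bases after the start.
Mcm3: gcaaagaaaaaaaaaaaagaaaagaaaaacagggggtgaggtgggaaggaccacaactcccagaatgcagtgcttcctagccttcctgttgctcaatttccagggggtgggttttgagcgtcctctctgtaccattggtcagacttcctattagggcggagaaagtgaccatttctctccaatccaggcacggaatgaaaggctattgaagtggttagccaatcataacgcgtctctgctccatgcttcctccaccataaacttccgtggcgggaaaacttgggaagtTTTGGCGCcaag
Pola1, Cdt1, Mcm5 and Mcm6 also held it, and of these only Pola1 had a held call, at 0.90 ± 0.14. Mcm5 was not called, though its 2 other probe sets were called higher.

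Genes of the DNA-damage response and of cell death moved both ways. Of 15 measured damage-response genes, 7 were called higher and 6 lower, with Zmat3 and Bbc3 (PUMA, which promotes death) at 1.77 and 1.38 and Plk2, a stress-induced kinase under the filter level in LB31 pMY, at -3.05. Of 18 genes of the BCL2 family and of death, 4 were higher and 7 lower, and 1 and 5 held. Of all genes 29.4% were called higher and 29.9% lower, and 12.8% and 24% held. Bmf, a death-promoting BH3-only protein, read 5.41, 5.46 and 5.46 in LB31 pMY against 9.63, 10.22 and 9.44, a fall of 4.32 ± 0.20 (adjusted p 9.18e-14), with no overlap with any marrow array. That was its brightest probe set, and its other 2 probe sets were not called. Bcl2 was not called, at 0.35, with 1 of its other 4 probe sets called higher and 2 lower.

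B-lineage transcription factors were mostly lower. Of 28 measured, 25 were called lower, 23 of them held, and 2 were higher, with a median of -1.25. Ebf1, which sets the B fate, read 9.86, 9.68 and 9.62 in LB31 pMY and 11.88, 11.67 and 11.27 in the knockout-labelled marrow, a fall of 1.88 ± 0.16 (adjusted p 1.73e-09). Foxo1, which drives Rag and Il7r transcription, read 8.25, 8.31 and 8.32 against 10.42, 10.27 and 10.08, a fall of 1.97 ± 0.11. Neither gene overlapped between groups, and both lay below all marrow arrays. Pax5, the factor that keeps B cells committed, fell by less, 0.68 ± 0.24 (adjusted p 0.0192). Irf4 and Klf2 fell by 1.88 ± 0.08 and 2.68 ± 0.15, and Bcl11a, Ets1, Tcf3 and Sox4 were also called lower. The only other probe set of Pax5 and of Irf4 was called higher, as was at least 1 other of Ebf1 (3 of its other 4 were lower), Bcl11a, Ets1, Ikzf3, Tcf3 and Sox4. With the mean of a gene's probe sets, members called higher minus those called lower went from -23 to -13. The 2 that rose were Runx1, at 1.49 ± 0.15, and Spi1, which encodes PU.1, at 1.30 ± 0.14.

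**Figure D5:**
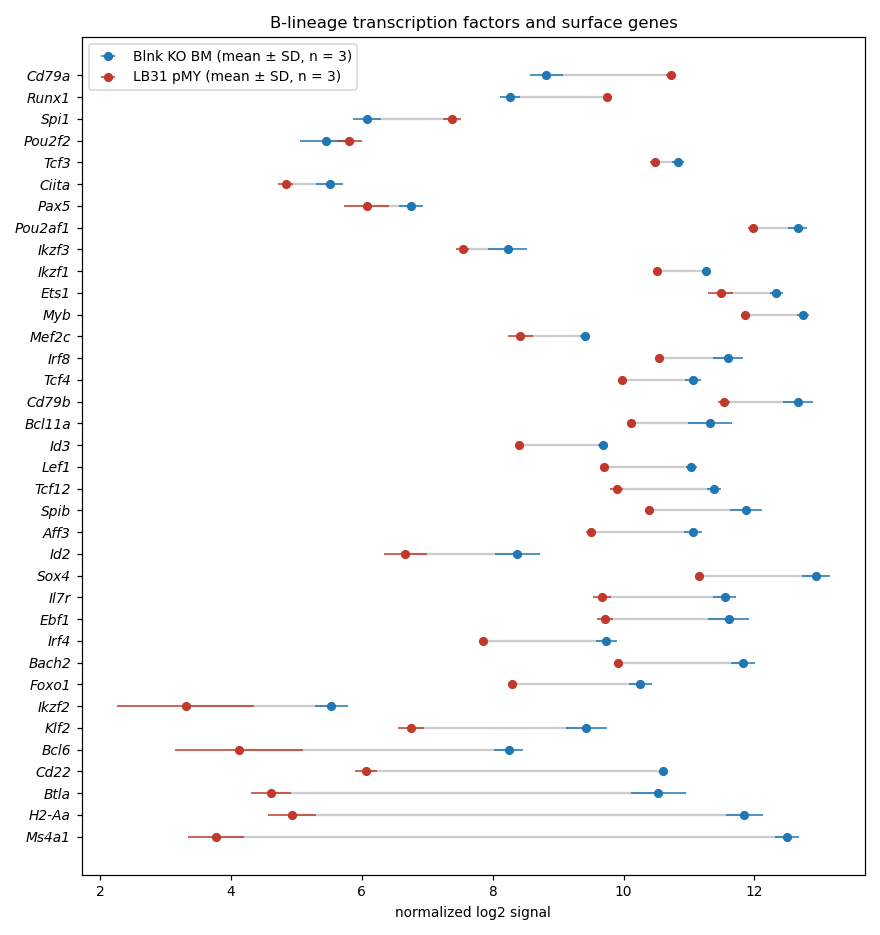
Mean normalized log2 signal (± SD, n = 3) in LB31 pMY and Blnk KO BM for 28 B-lineage transcription factors and 8 surface or related genes, ordered by change. LB31 pMY lies to the left for most genes, by 0.68 for Pax5 and 8.72 for Ms4a1, and to the right for Cd79a, Runx1 and Spi1.

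The recombinase genes were at background in LB31. RAG1 and RAG2 cut the antigen receptor loci in pro-B and small pre-B cells. Rag1 read 2.16, 2.43 and 2.15 in LB31 pMY and 12.18, 12.19 and 11.54 in the knockout-labelled marrow, a change of -9.72 ± 0.21 (adjusted p 7.91e-19). Rag2 read 2.41, 2.20 and 2.23 against 9.42, 9.12 and 9.04, a change of -6.91 ± 0.19. Both were under the filter level in all 9 LB31 arrays and far above it in all 12 marrow arrays. Dntt, which adds nucleotides at the joins, was less changed, at 10.81, 10.66 and 10.82 against 11.87, 11.44 and 11.67, and its call did not hold. Of 19 pro-B and large pre-B genes, 12 were called lower and 3 higher, with Flt3 and Kit, receptors of early progenitors, under the filter level in LB31 pMY and Enpep, the BP-1 antigen of pre-B cells, at 0.79 ± 0.16.

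The surrogate light chain genes did not pass the test, and the pre-B receptor's signalling chains moved apart. VPREB1 and λ5, encoded by Igll1, stand in for the light chain in the pre-B receptor. Igll1 read 12.76, 12.83 and 12.83 in LB31 pMY and 12.90, 12.65 and 12.78 in the knockout-labelled marrow, which overlapped, and the change was 0.03 ± 0.13 (adjusted p 0.866). Vpreb1 changed by 0.10 ± 0.09 (adjusted p 0.371). After centring on medians, 5 of the 6 genes of the list were called higher and 1 lower, against 1 and 2 after quantile normalization. Cd79a, one of the 2 signalling chains, read 10.64, 10.73 and 10.80 in LB31 pMY and 9.05, 8.87 and 8.54 in the knockout-labelled marrow, a rise of 1.90 ± 0.09. Its partner Cd79b read 11.46, 11.63 and 11.52 against 12.72, 12.86 and 12.41, a fall of 1.13 ± 0.09. Both chains were outside all marrow arrays, on opposite sides.

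Genes downstream of the receptor were lower, activating and inhibitory alike. Of 19 activating genes, 15 were called lower, 12 of them held, and 1 was higher, with a median of -0.77. Syk, the receptor's kinase, read 8.87, 8.87 and 8.74 in LB31 pMY and 11.32, 11.38 and 10.87 in the knockout-labelled marrow, a fall of 2.36 ± 0.11, with 1 of its other 3 probe sets called higher. Prkcb, a protein kinase C, fell by 2.41 ± 0.08, and Rasgrp3, an activator of Ras, by 4.72 ± 0.32 to under the filter level. Btk, Blk and Pik3cd were not called, though 2 other probe sets of Pik3cd were called in each direction. The adaptor gene Shc1 rose by 1.10 ± 0.10. Of 16 inhibitory genes, 14 were called lower, 12 of them held, with a median of -1.48. Cd22, a sialic acid receptor that dampens signalling, read 5.88, 6.17 and 6.16 against 10.58, 10.65 and 10.58, a fall of 4.54 ± 0.12 (adjusted p 1.13e-17). The groups did not overlap in either gene. Btla and Siglecg fell by 5.92 ± 0.18 and 3.78 ± 0.13, and Pag1, an anchor for the kinase CSK, rose by 0.64 ± 0.10.

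Genes of immature and mature B cells and of class II antigen presentation were lower in LB31, 10 of the mature B cell genes with LB31 pMY under the filter level and 0 of the class II genes. Of 21 mature B cell genes, 18 were called lower, all held, 1 was higher, and the median was -3.32. Ms4a1, which encodes CD20, read 4.15, 3.87 and 3.31 in LB31 pMY and 12.47, 12.70 and 12.33 in the knockout-labelled marrow, a change of -8.72 ± 0.18. Ltb, lymphotoxin beta, read 3.99, 2.30 and 3.96 against 11.69, 11.95 and 11.32, a change of -8.23 ± 0.38. Neither gene approached any marrow array in LB31, although the marrow with both changes had lower means, 9.72 for Ms4a1 and 8.39 for Ltb, than the other marrow groups. Summed signal of the 21 genes was 15750 to 22230 in the knockout-labelled marrow and 1939 to 2006 in LB31 pMY. Of 13 class II genes, 12 fell and held, with H2-Aa at 4.56, 5.29 and 4.95 against 11.53, 12.08 and 11.93, a fall of 6.92 ± 0.14. Cd74, the invariant chain, fell by 3.99 ± 0.20, beside the lower monocyte and plasmacytoid dendritic cell markers. Ciita, the class II activator, fell by 0.67 ± 0.25, and Rfxap was called higher without holding. Of 15 class I genes, 6 were called higher and 6 lower, but as deposited 2 were higher and 8 lower and after centring 9 were higher and 1 lower, so the direction of the list depends on the scaling. Among the held class I calls was the peptide transporter gene Tap2 at 1.75 ± 0.09.

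Among 33 immunoglobulin probe sets with 1 gene symbol, 20 were called lower and 2 higher, in a test of 33764 probe sets of which 56.9% were called, 27.6% lower and 29.3% higher. Probe sets of variable genes can bind related segments, so the segment named is uncertain. The 2 brightest of the 8 for Ighm, the μ heavy chain, were close, at -0.43 and -0.55. One of them read 12.50, 12.66 and 12.65 in LB31 pMY and 13.18, 13.15 and 12.77 in the knockout-labelled marrow. The 3 for Igha fell by 6.42 to 8.88 (their means in LAP tg/BLNK KO marrow were also low, 3.10 to 4.27), and the 3 for Iglv1, of the λ light chain, by 4.36 to 6.25. The Ighv14-2 probe set read 5.71, 5.66 and 5.62 in LB31 pMY against 10.34, 10.38 and 10.02, a fall of 4.58. Of 16 κ probe sets 10 were lower, and of the 2 that were higher the Igkv4-68 probe set rose by 1.73.

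Cebpb was high in LB31 by 1 probe set and low by another. C/EBPβ is a transcription factor of myeloid and stress responses. The brighter Cebpb probe set read 10.10, 10.28 and 10.27 in LB31 pMY and 4.68, 4.99 and 5.38 in the knockout-labelled marrow, a change of 5.20 ± 0.13 (adjusted p 4.79e-18). The other Cebpb probe set read 5.04 or less on every LB31 pMY array against 6.31, 7.46 and 7.37 and was called lower, with an adjusted p of 1.61e-05. The groups did not overlap in either, and the directions were opposite. At the brighter Cebpb probe set wild-type marrow had a mean of 5.43, LAP tg marrow 10.05 and LAP tg/BLNK KO marrow 9.90, so LB31 was near the 2 transgenic marrow groups and above the other 2. The labels name no LAP transgene for LB31, and the part of such a genotype in the comparison was not tested. No source used here says which stretch of the transcript each probe set reads. Cebpd, a relative induced in myeloid cells, fell by 3.23 ± 0.37 to under the filter level, and Cebpa was not called. Of 5 family genes measured, 1 was called higher and 3 lower.

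Interferon-response genes were lower, with 0 called higher. Of 21 measured, 15 were called lower, all held, and the median was -1.22. Oas1a, an antiviral RNA sensor, read 3.22, 3.55 and 4.69 in LB31 pMY and 9.29, 9.15 and 8.62 in the knockout-labelled marrow, a change of -5.20 ± 0.27. Rsad2, which encodes viperin, fell by 4.08 ± 0.38, and both lay below all marrow arrays. Ifit2, Ifih1 and Stat2 were not called. The monocyte, macrophage and plasmacytoid dendritic cell markers were lower in the same arrays.

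NF-κB genes were lower more often than higher, and lymphotoxin alpha rose. Of 16 measured, 9 were called lower, all held, and 4 higher, 1 held. Of all genes 29.9% were called lower and 29.4% higher, and 24% and 12.8% held. Lta, lymphotoxin alpha, read 9.68, 9.67 and 9.68 in LB31 pMY and 4.41, 4.25 and 3.73 in the knockout-labelled marrow, a rise of 5.55 ± 0.34 (adjusted p 6.55e-12), the opposite of Ltb, its neighbour on the chromosome. Birc3, an inhibitor of death induced by NF-κB, read 7.48, 7.60 and 7.76 against 10.94, 11.28 and 10.71, a fall of 3.37 ± 0.14. The groups were apart for both genes. Relb, a subunit of the alternative pathway, fell by 3.39 ± 0.47 to under the filter level, and Tnf was called higher, at 1.70, without holding.

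Immediate early genes and ERK feedback genes were mostly lower. Of 29 measured, 16 were called lower, 15 of them held, and 8 higher, 3 held. The shares of all genes were 29.9% called lower and 29.4% higher. Fos read 5.17, 4.51 and 4.15 in LB31 pMY and 9.73, 10.20 and 7.15 in the knockout-labelled marrow, a fall of 4.42 ± 0.59, with the third marrow array well below the other 2. Egr1, induced by receptor signals, fell by 2.39 ± 0.21. LB31 given Blnk cDNA had an Egr1 mean of 8.24, within the marrow range. The 3 held rises were in Dusp5, Junb and Spry1. Dusp5, a nuclear ERK phosphatase, read 9.78, 10.02 and 9.77 against 5.09, 5.33 and 5.40, a change of 4.58 ± 0.21. Wild-type and LAP tg marrow had higher Dusp5 means, 7.43 and 7.86, and the rise over wild-type marrow was 2.43. Junb rose by 2.46 ± 0.19 and Spry1 by 1.46 ± 0.16.

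Homing and adhesion genes were lower in 19 of 25 measured, 16 of them held, and higher in 3. Vcam1, an adhesion ligand, read 2.28, 2.17 and 2.11 in LB31 pMY and 10.49, 11.20 and 11.77 in the knockout-labelled marrow, a change of -8.97 ± 0.31. It is also a marker of the stromal list, whose summed signal was lower in the same arrays. The chemokine receptor genes Ccr7, Cxcr5 and Cxcr4, the last of which keeps B precursors in the marrow, were called lower by 4.49, 4.19 and 1.90. Itga6, a laminin receptor chain, rose by 1.79.

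In the PI3K and FOXO list, 11 of 18 genes were called lower, all held, and 4 higher, 2 held. Over all genes 29.9% were called lower and 29.4% higher. Pik3ip1, an inhibitor of PI3K and a FOXO target, read 6.49, 6.91 and 6.50 in LB31 pMY and 9.69, 10.02 and 9.71 in the knockout-labelled marrow, a fall of 3.17 ± 0.19. Sesn3 and Ccng2, also FOXO targets, fell by 3.03 and 2.75. Akt1 rose by 1.61, and Inpp4b, a lipid phosphatase under the filter level in the knockout-labelled marrow, by 2.49 ± 0.30.

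Regulators tied to leukaemia were lower more often than higher, and the balance of chromatin genes depended on the scaling. Of 24 leukaemia-associated regulators, 14 were called lower and 4 higher, and 12 and 2 held. Among all genes 29.9% were called lower and 29.4% higher. Btg1, an inhibitor of proliferation deleted in some human pre-B leukaemias, read 10.01, 9.78 and 9.87 in LB31 pMY and 13.38, 13.54 and 13.15 in the knockout-labelled marrow, a fall of 3.47 ± 0.08. The related repressors Gfi1 and Gfi1b went opposite ways. Gfi1 read 3.88, 3.32 and 4.87 against 8.33, 8.13 and 8.38, and Gfi1b read 8.67, 8.84 and 8.74 against 5.28, 5.19 and 5.90. The groups did not overlap for either gene. Of 19 DNA methylation and Polycomb genes, 10 were called lower and 3 higher, against 7 lower and 6 higher after centring, with Tet1, a demethylating enzyme, at -4.78 ± 0.34 and Tet3 at 1.55.

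The measured defining markers of the B lineage had means above the filter level in LB31 pMY. Of 7 measured, 5 were called lower, 4 of them held, and 1, Cd79a, higher, after centring 4 were lower and 3 higher, and their summed signal was 19510 to 20360 in LB31 pMY against 28140 to 33280 in the knockout-labelled marrow. Ptprc, whose product carries the B220 epitope, read 10.55, 10.52 and 10.56 in LB31 pMY and 12.17, 12.38 and 12.10 in the knockout-labelled marrow, a fall of 1.67 ± 0.06, with no overlap.

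The same kind of difference was looked for in 6 arrays that this comparison did not use, LB31 with the YF mutant against marrow with both changes. That pair differs from the first also by vector and LAP transgene and was normalized and fitted together with it. LB31 is the same line in both pairs, so traits of the line are shared by them. There 8518 genes were called (58.1%), 4025 higher (27.5%) and 4493 lower (30.7%). Of the 4309 genes higher in LB31 pMY, 3393 were higher there, which is 78.7% of the first list and 84.3% of the second, and 17 were lower. Of the 4386 lower genes, 3787 were lower there, 86.3% and 84.3% of the lists, and 28 were higher. Among held calls, 1780 of 1875 higher and 3192 of 3515 lower genes were called in the same direction. Mycn was higher there by 6.74, Fdps by 4.23 and Asns by 4.22, Rag1 was lower by 8.98 and Ms4a1 by 5.97. Cebpb was not called (0.19, adjusted p 0.218), nor was Pax5 (-0.24, adjusted p 0.426), and Ikzf3 was called the other way, at 0.83.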

How the data were processed

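Per the labels, biotin-labelled RNA of 21 samples, made from 100 ng each, was hybridised to Affymetrix mouse expression arrays. The deposited values are linear signal intensity values, and MAS5 is named per the submitters' processing notes, and neither its version nor its scaling target was found there. After 64 control probe sets were left out, log2(intensity + 4) was quantile normalized over all 21 arrays. Fold changes on this scale understate dim genes. A probe set entered if 3 or more arrays had it above the percentile 40 of that array, and each gene was represented by the probe set with the highest mean. Of 45101 probe sets, 34945 had 1 gene symbol in the platform annotation, 932 several and 9160 none here; 34741 matched mouse RefSeq genes of GRCm38.p6 by Entrez ID. Of 18193 genes, 14655 were tested. Means of 7 groups were fitted with limma 3.58.1 under R 4.3.3 (lmFit, then eBayes allowing a trend with intensity) on 14 residual degrees of freedom, two-sided, adjusted by Benjamini-Hochberg. The number of arrays limits the precision. The scripts were tested on simulated data.

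Named by size were the 15 largest rises and falls with both groups above the filter level and the 10 of each with 1 group at or under it, all with non-overlapping groups and held calls; list members, Blnk, Cebpb and Xist were named besides. Members and lists were chosen with earlier results of these data known. Where other probe sets existed, 57 of 304 called list members had 1 called the opposite way, and 1 of 22 genes named by size, Cebpb. Alternatives were other scalings, the 6 arrays alone, pseudocounts of 1 and 16, other filters, the mean of a gene's probe sets, no intensity trend, the replicate number as a block and each array left out. Some items are not reported here.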

Additional observations from a re-analysis of the deposited data

How the results depend on the processing

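The 50 genes named by size were chosen with calls under all 3 scalings, so their calls there are no check; they also stayed called under the other alternatives tried. The scaling moved the balance of calls most among those tried. As deposited, 1879 genes were called higher and 22.89% of called genes were higher, against 49.56% after quantile normalization and 58.15% after centring; 1378 genes lay above all marrow arrays, and 76.32% of called genes had the same call in LB31 with YF against LAP tg/BLNK KO marrow, against 82.58%. Members called higher minus those called lower turned sign for mitosis (-4) and the damage-response list (-2) as deposited, for the pre-B receptor list (4) and the BCL2 family (2) after centring, and for the D cyclin list (2), the BCL2 family (3) and the C/EBP family (1) with the mean of probe sets; the cause was not tested. The other alternatives, among them the 6 arrays alone (8170 genes called), pseudocounts of 1 (8599) and 16 (8814), no filter (8738), a filter at the 60th percentile (7974), the mean of probe sets (8454) and no intensity trend (8661), gave counts within 1.5 times the 8695. Leaving out each array in turn gave 8193 to 8380 genes called, 4012 to 4162 higher and 4145 to 4218 lower, 48.92 to 49.76% higher, and 30 to 33 lists with at least 50% of their members called in 1 direction, against 32. Replicate numbers did not pair the arrays: deviations of same-numbered arrays of the groups correlated at 0.0179, 0.00175 and 0.00281, and with the replicate block 8676 genes were called and all 50 genes named by size stayed called. Detection calls were not used, so genes under the filter level have a difference with no measured lower side, and 3 arrays a group limit the precision.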

Other observations

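Changes were not spread evenly over the chromosomes. Over 9040 genes whose brighter group had a mean above 6.06, 39.07% were called higher in LB31 pMY, with a median change of 0.007. Chromosome 19 had a median of 0.49 with 61.45% of 345 genes higher, chromosome 3 one of 0.38 with 56.02% of 432, and chromosome 10 one of 0.37 with 55.82% of 455. The X chromosome had a median of -0.25 with 25.27% of 273 higher, and the other autosomes ran from -0.19 to 0.09. These values are after quantile normalization. As deposited the medians of chromosomes 19, 3, 10 and X were 0.12, -0.04, -0.05 and -0.70, with the other autosomes from -0.68 to -0.38. After centring they were 0.77, 0.61, 0.60 and -0.05, with the other autosomes from -0.03 to 0.27. The order of these chromosomes against the rest thus stayed, while the sign for chromosomes 3 and 10 depended on the scaling. LB31 with the YF mutant against marrow with both changes shares no array with this comparison but is of the same line. There the medians were 0.50, 0.33 and 0.32 for chromosomes 19, 3 and 10 and -0.31 for X. In the knockout-labelled against wild-type marrow no chromosome's median left the range from -0.06 to 0.04.

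Among the 3 tested genes on each side of Lta and of Mycn, changes were unlike. Lta, encoding lymphotoxin alpha, rose by 5.55 while Ltb, 2 tested genes away, fell by 8.23; Tnf between them was called higher at 1.70 without holding. The neighbours of Mycn moved little or the other way: Ddx1 rose by 0.95 and held, Nbas was called higher at 0.64 without holding, Cyria fell by 0.43 and Trib2, encoding a pseudokinase, fell by 6.23.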
